A study of Homo sapiens with 6 samples.

Results

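The insulin-like growth factor (IGF) system genes are 10 genes chosen by name from the 35639 genes of an RNA-seq table: the ligands IGF1 and IGF2, the receptors IGF1R and IGF2R, and the binding proteins IGFBP2, IGFBP3, IGFBP4, IGFBP5, IGFBP6 and IGFBP7. Every member was found in the table. IGF1 and IGF2 are secreted peptides that drive growth and survival of osteoblast-lineage cells through the receptor tyrosine kinase IGF1R, whereas IGF2R takes IGF2 into the cell for degradation. The binding proteins hold IGFs in the extracellular space, and proteases that cleave them release the ligand. Bone matrix stores large amounts of IGFs, which makes the system a major regulator of bone growth and remodelling.

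The libraries were made from hFOB 1.19, osteoblastic cells from human fetal tissue whose growth depends on a heat-labile form of the SV40 large T antigen, after transduction with the lentiviral vector pHIV-dTomato. The vector was empty (EV) or carried HA-tagged histone H3.3 as wild type (WT) or with glycine 34 replaced by tryptophan (G34W), the change found in giant cell tumour of bone. All cells kept their own H3.3 genes, were sorted in bulk for dTomato and were grown at 34 °C, where this antigen is active, until collection 15 days after transduction. The inserted cDNA was that of Drosophila His3.3A, so the human H3.3 genes in the table do not check the labels.

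Groups follow the library titles, but the genotype recorded for each library states the reverse for WT and G34W. If that record were right, the names WT and G34W would have to be exchanged in every comparison below. The comparisons used EV replicate 2, both WT libraries and both G34W libraries. EV replicate 1 was left out, since it was listed at 0 for 80.5% of genes. The values are normalised estimated counts, whose sums were between 38821143 and 48024590 in the 5 libraries compared. These are not read counts, so the sequencing depth behind each value is unknown. Each group was collected in duplicate. The study used several infections and took separate wells as replicates, but which infection each of these libraries came from is not given in the sources used here. The tests therefore measure only the spread between these libraries, which may be technical.

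G34W replicate 1 stood apart from the other libraries. Across the 16259 genes tested, its log2 values correlated with theirs at 0.906 to 0.916, whereas the other 4 libraries correlated with each other at 0.962 to 0.974. All 11 pluripotent stem cell markers listed (POU5F1, SOX2, NANOG, LIN28A, DPPA4, TDGF1, L1TD1, DNMT3B, ZFP42, SALL4 and PRDM14) were highest in that library, each by more than 2-fold over any other. Their summed value was 64980 in G34W replicate 1. It was 711 in G34W replicate 2, 849 and 839 in WT and 932 in EV replicate 2. POU5F1 was the most abundant of them in G34W replicate 1, and DNMT3B in each of the other 4 libraries. Results that rest on this library are therefore given with and without it.

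The 9 osteoblast markers listed were summed, which describes their level and does not test the osteoblast label. Their summed value was 219500 in EV replicate 2, 202100 and 213800 in WT, and 191700 and 261500 in G34W. COL1A2, a collagen type I chain, was the most abundant, and COL1A1 and SPARC were also high in every library, while RUNX2, ALPL and SPP1 were lower. Of the genes that mark mature osteoblasts, IBSP was listed at 0 in 4 of the 5 libraries, SP7 was between 1.43 and 6.03, and BGLAP between 4.08 and 44.9.

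Markers of other cell types were also summed. The 6 myeloid markers (PTPRC, CD14, CSF1R, ITGAM, AIF1 and CD68) summed to between 1081 and 1432, most of it from CD68, with AIF1 listed at 0 in 3 libraries. The 4 endothelial markers (PECAM1, CDH5, VWF and KDR) summed to 776 in G34W replicate 1 and to between 93.8 and 261 elsewhere. KDR was the most abundant in G34W replicate 1 and WT replicate 2, and PECAM1 in the other 3 libraries. In G34W replicate 1, KDR was at 656, while PECAM1 (66.1) and VWF (42.4) were below their values in EV replicate 2 and WT replicate 1. CDH5 was low in every library and also highest there, at 10.9. The 4 chondrocyte markers (SOX9, COL2A1, ACAN and COMP) summed to between 288 and 600, most of it from SOX9. The other 3 were highest in G34W replicate 1, with COL2A1 at 82.9, ACAN at 19.9 and COMP at 16.0.

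Per kilobase of the canonical transcript, the binding proteins led the system. In the 3 libraries without mutant histone (EV replicate 2 and both WT), the mean value per kilobase was 7501 for IGFBP7, 5779 for IGFBP6 and 5455 for IGFBP4. Their ranges over these libraries overlapped, so the order among them is not resolved. A second tier held IGFBP3 at 881 and IGF2R at 695 per kilobase, whose ranges also overlapped, followed by IGFBP5 at 375. IGFBP2 (159), IGF1R (121) and IGF2 (96.1 per kilobase) came next, each overlapping its neighbour. IGF1 was at 1.22 per kilobase, far under all others. IGF2 was thus the main IGF ligand transcript of these cells.

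**Figure D1:**
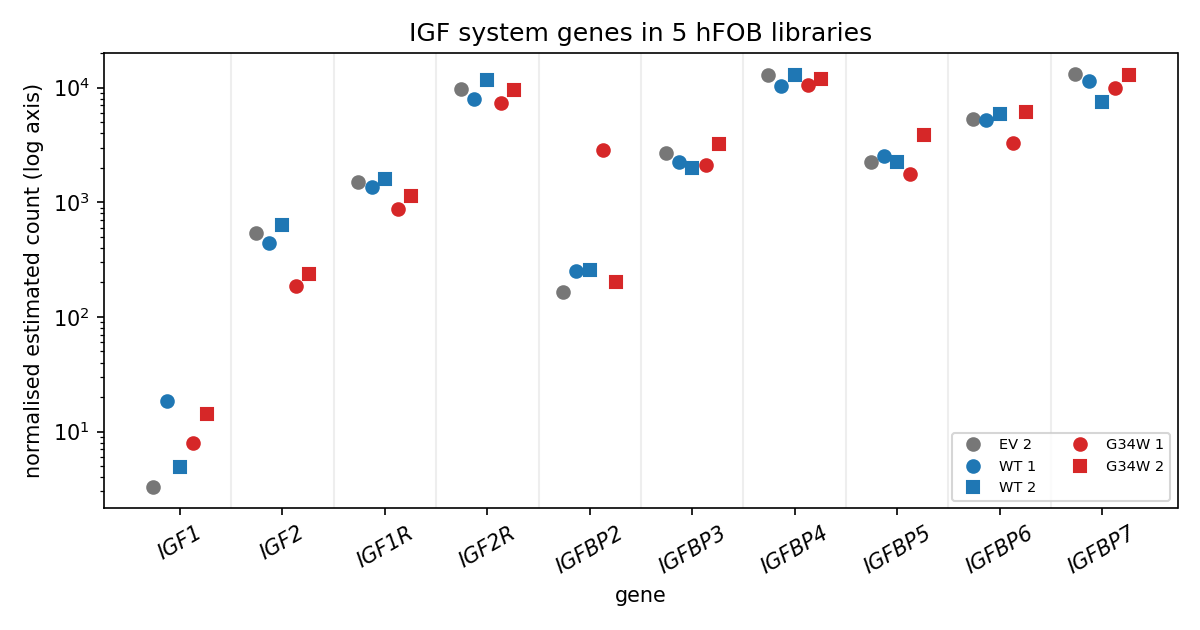
Normalised estimated count (log axis) of the 10 IGF system genes in the 5 libraries compared, 1 point per library. IGF2 and IGF1R were lower in both G34W libraries than in the other 3, and IGFBP2 was high in G34W replicate 1 alone.

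The first question was whether the mutant histone changed these genes relative to the wild-type histone. In limma with Benjamini-Hochberg adjustment, 0 of the 9 members tested passed an adjusted p of 0.05, as did 0 of all 16259 genes (0%). At an unadjusted p under 0.05 there were 439 genes, 265 higher and 174 lower in G34W, which is 2.7% of those tested. Both G34W libraries were below both WT libraries for 2 of the 9 members, IGF2 and IGF1R, against 14.7% of all genes tested. For 0 of the 9 members were both above, against 11.6% of all genes. With so few members, these counts are a description and not a property of the system. The smallest p that an exact permutation of 2 against 2 libraries can give is 0.333.

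IGF2, the fetal growth factor whose gene is imprinted, showed the clearest separation of the groups. Its gene (ENSG00000167244) lies at chr11:2129117-2149566 of GRCh38.p14. The value was 185 and 236 in G34W, 438 and 627 in WT, and 544 in EV replicate 2. The mean was 211 ± 36.6 (SD, n = 2) in G34W and 533 ± 134 (SD, n = 2) in WT. Both G34W libraries were thus below all 3 others. The fold change was 0.400, a log2 difference of -1.32 with a standard error of 0.36 and a 95% interval from -2.15 to -0.50. The limma adjusted p was 1, and by unadjusted p (0.00542) the gene ranked 31 of 16259. IGF2 therefore did not pass the test across all genes.

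The low IGF2 value did not rest on the library with stem cell markers. Without G34W replicate 1 the log2 difference was -1.15, and the adjusted p was again 1. Over all 12 alternatives it lay between -1.58 and -1.06, with adjusted p between 0.404 and 1. The median gene of G34W replicate 1 was at -0.17 from the WT mean on the log2 scale, and that of G34W replicate 2 at 0.04. Fewer cells that express IGF2 and less IGF2 RNA per cell cannot be told apart in bulk libraries. The readthrough gene INS-IGF2, which shares sequence with IGF2, was listed at 0 in every library.

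IGF1, the ligand that mediates much of the action of growth hormone, was barely present. Its value was 7.99 and 14.3 in G34W, 18.5 and 4.87 in WT, and 3.25 in EV replicate 2. The groups overlapped, and its mean of 9.78 was just under the minimum of 10 needed for testing.

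IGF1R, the signalling receptor for both ligands, was the other member with separated groups. It was 878 and 1126 in G34W, 1346 and 1588 in WT, and 1492 in EV replicate 2. Both G34W libraries were again below the other 3. The log2 difference was -0.56 with a standard error of 0.28, its 95% interval from -1.18 to 0.07 included 0, and the limma adjusted p was 1. It was -0.38 without G34W replicate 1, and between -0.74 and -0.38 over all 12 alternatives.

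IGF2R, also known as the cation-independent mannose 6-phosphate receptor, overlapped between the groups. It was 7297 and 9592 in G34W, 7971 and 11620 in WT, and 9704 in EV replicate 2. The log2 difference of -0.20 (SE 0.28) was smaller than its error, and it was 0.00 without G34W replicate 1.

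**Figure D2:**
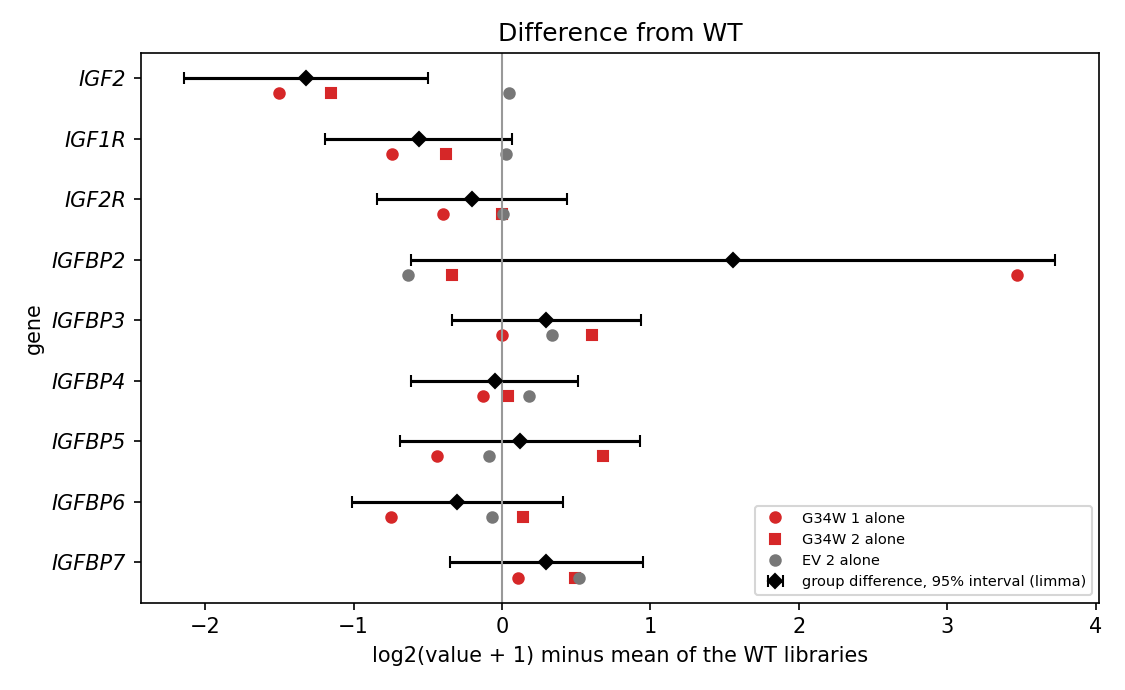
Difference of log2(value + 1) from the mean of the WT libraries for the 9 members tested. Diamonds with bars give the group difference of G34W from WT and its 95% interval from limma; circles and squares give single libraries. Only the interval of IGF2, from -2.15 to -0.50, leaves out 0 before adjustment over all genes.

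Promoter sequence is shown for the members on which the results turn and for the neighbour of IGFBP2. RefSeq windows (GRCh38.p14) matched 8 of the 10 members, and for 7 of these a window lay at the outer start of the gene. IGF2 and IGFBP7 were not matched. Each line gives the 250 bases before the start, 5′ to 3′ on the strand of the gene, with matches to the GC box GGGCGG on either strand in capitals. The IGF1R window is chr15:98648289-98648538 (plus strand), that of IGFBP2 is chr2:216632578-216632827 (plus strand), and that of IGFBP5 is chr2:216695550-216695799 (minus strand).
IGF1R: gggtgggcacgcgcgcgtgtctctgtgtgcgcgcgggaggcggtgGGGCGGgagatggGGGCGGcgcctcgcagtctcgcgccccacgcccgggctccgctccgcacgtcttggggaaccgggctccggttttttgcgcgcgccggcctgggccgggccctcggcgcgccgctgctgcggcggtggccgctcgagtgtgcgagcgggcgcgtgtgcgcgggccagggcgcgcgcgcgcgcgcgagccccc
IGFBP2: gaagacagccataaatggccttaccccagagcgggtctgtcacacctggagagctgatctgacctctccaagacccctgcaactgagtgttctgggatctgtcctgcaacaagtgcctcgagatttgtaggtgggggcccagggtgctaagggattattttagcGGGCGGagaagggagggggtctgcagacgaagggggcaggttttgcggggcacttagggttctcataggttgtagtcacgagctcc
IGFBP5: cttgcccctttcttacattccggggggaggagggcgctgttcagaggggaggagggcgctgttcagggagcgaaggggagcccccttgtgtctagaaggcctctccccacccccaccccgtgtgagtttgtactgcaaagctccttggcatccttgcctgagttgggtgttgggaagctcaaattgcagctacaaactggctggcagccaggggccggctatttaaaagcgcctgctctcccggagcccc

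The IGF1R window had 81.2% G and C and 48 CpG dinucleotides, against medians of 58% and 11 over 35116 windows. IGFBP2, at the outermost of its start sites, had 56.8% and 7, and IGFBP5 61.2% and 8. The window of the signalling receptor was thus the richest in CpG of these. A GC box was found in 6 of the 7 members' windows, overlapping matches counted, and in 42.6% of all windows. The letters TATAAA were found in 1 of the 7, that of IGFBP4, and in 10.7% of all windows. A match describes the letters only.

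Among the binding proteins, IGFBP2 had the widest range. This protein binds IGF2 with high affinity, and its gene lies at chr2:216632828-216664436, next to IGFBP5 at chr2:216672105-216695549. IGFBP2 was 2829 in G34W replicate 1 but 200 in G34W replicate 2, against 252 and 257 in WT and 164 in EV replicate 2. A single library was thus 11 times the next highest. The log2 difference of 1.56 (SE 0.96, limma adjusted p = 1) turned to -0.34 without that library and was 3.47 without G34W replicate 2. The same library held the stem cell markers described above; their part in its IGFBP2 value was not tested.

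**Figure D3:**
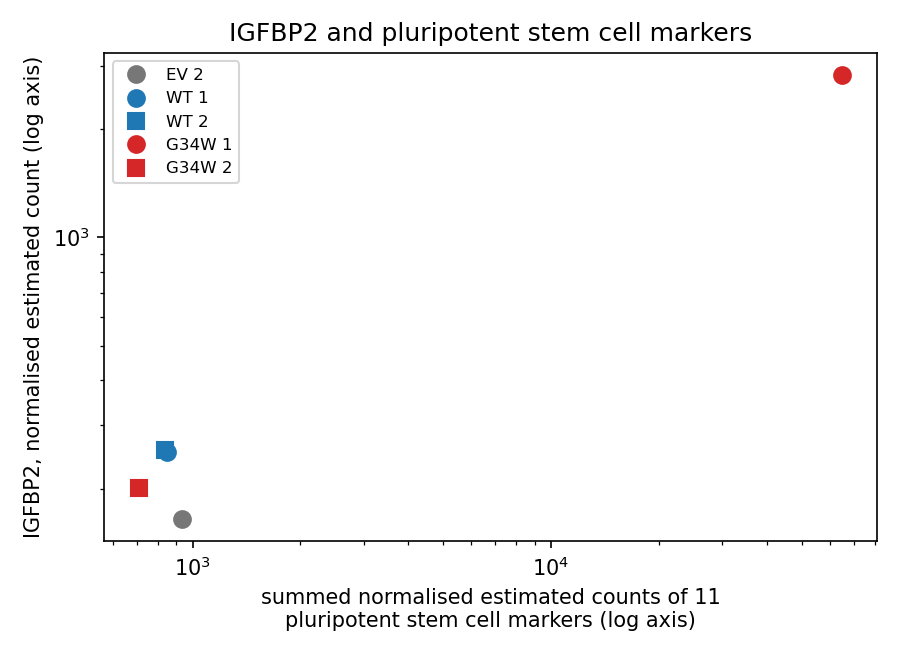
IGFBP2 (normalised estimated count, log axis) against the summed value of 11 pluripotent stem cell markers (log axis), 1 point per library. G34W replicate 1, at 2829 and 64980, lies apart from the other 4 libraries, which are between 164 and 257 for IGFBP2.

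IGFBP5, an abundant binding protein of bone matrix, had both G34W libraries at the ends of its range. It was 1759 in replicate 1, the lowest of the 5 libraries, and 3832 in replicate 2, the highest. Both WT libraries (2512 and 2261) and EV replicate 2 (2236) lay between them. The log2 difference of 0.12 (SE 0.36) became 0.68 without replicate 1 and -0.44 without replicate 2, so the data give no direction for this gene.

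IGFBP6, which prefers IGF2 over IGF1, had the same arrangement. It was 3301 and 6128 in the G34W libraries, which were the lowest and the highest, with 5210, 5920 and 5288 in the WT and EV libraries. Its log2 difference was -0.30 (SE 0.32), and 0.14 without G34W replicate 1.

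For the other binding proteins the groups overlapped. IGFBP3, the main carrier of circulating IGFs, was 2116 and 3222 in G34W and 2241 and 1995 in WT, with 2669 in EV replicate 2. IGFBP7, which binds IGFs weakly, was 9953 and 12950 in G34W, 11390 and 7491 in WT and 13230 in EV replicate 2. The log2 difference was 0.30 for both, with standard errors of 0.28 and 0.29, and single libraries set its size. That of IGFBP3 was 0.61 without G34W replicate 1 and 0.00 without G34W replicate 2. For IGFBP7 it was 0.49 without G34W replicate 1, 0.11 without G34W replicate 2, 0.60 without WT replicate 1 and 0.00 without WT replicate 2. IGFBP4, an inhibitory binding protein, ran from 10290 to 13000, a 1.26-fold range that was the smallest of the 10 members as a ratio. Its log2 difference of -0.05 (SE 0.25) turned to 0.02 when the libraries were rescaled and to 0.04 without G34W replicate 1.

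Over the 9 members tested, the log2 difference was positive for 4 and negative for 5, with a median of -0.05. The median of all 16259 genes was -0.06. Without G34W replicate 1 all 10 members reached the minimum for testing, with 6 positive, 4 negative and a median of 0.09, against 0.04 over 15917 genes.

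The comparisons with the empty vector rest on a single EV library, which both share and which was assumed to vary like the other groups. For G34W against EV, limma called 0 of the 9 members and 0 of 16259 genes (0%), with 317 genes at an unadjusted p under 0.05. For WT against EV it called 0 of 9 and 0 of 16259 (0%), with 157 genes at that level. IGF2 differed from EV by -1.37 (SE 0.45) on the log2 scale in G34W and by -0.05 (SE 0.45) in WT, both with adjusted p = 1. For IGF1R these differences were -0.59 (SE 0.34) and -0.03 (SE 0.34). WT thus lay close to the empty vector for both genes, while the G34W values lay lower. Of the other members, IGFBP2 was at 2.19 (SE 1.17) in G34W and at 0.63 (SE 1.17) in WT. Without G34W replicate 1, the difference of G34W from EV was -1.20 for IGF2, -0.41 for IGF1R and 0.29 for IGFBP2. All others tested were within 0.52 of EV in both comparisons; without that library IGFBP5 was at 0.78 in G34W. IGF1 was below the minimum for testing in the fit of all 5 libraries. Without G34W replicate 1 it was at 1.85 (SE 1.65) in G34W and at 1.33 (SE 1.43) in WT, from values near the minimum.

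The other genes of the pathway were taken from 5 lists of 46 genes, of which 42 were tested. In G34W against WT, limma called 0 of them higher and 0 lower. The log2 difference was positive for 15 and negative for 27, against 43.1% positive and 56.9% negative over all 16259 genes tested. These counts changed without G34W replicate 1. Receptor signalling then had 13 positive and 9 negative, and the growth hormone axis 4 and 1. The proteases and their inhibitors had 3 and 4, the IGF2 regulators 1 and 4, and the other ligands, receptors and carriers 2 and 2. Over all genes tested without that library, 8975 were positive and 6941 negative. Both G34W libraries were above both WT libraries for 3 of the 42, against 11.6% of all genes, and below for 8 of the 42, against 14.7%.

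Among other ligands, receptors and carriers, 3 of 5 genes were tested, with a median log2 difference of -0.01, or 0.10 over 4 genes without G34W replicate 1. IGFBPL1, a binding protein-like gene, was at 0.52 (SE 0.40) and at -0.04 without that library. INSR, the insulin receptor, was at -0.01 (SE 0.38) and at 0.24 without that library. Insulin itself was listed at 0 in every library, and IGFBP1 did not reach the minimum. IGFALS, which stabilises circulating IGF complexes, was low but below WT in both G34W libraries, and is named after its values were seen. Its log2 difference of -1.15 (SE 1.16) was smaller than its error.

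The 7 proteases of binding proteins and their inhibitors had a median log2 difference of -0.26, and 6 were negative. Without G34W replicate 1 the median was -0.07, and 4 were negative. PAPPA, the protease that cleaves IGFBP4 and frees IGF, was 4233 and 5503 in G34W and 5728 and 7700 in WT. Its groups did not overlap, and its log2 difference was -0.46 (SE 0.27), or -0.27 without G34W replicate 1. STC1, an inhibitor of PAPPA, was at -0.43 (SE 0.39) and ADAM12, another protease, at -0.40 (SE 0.37). Without that library they were at -0.08 and -0.07.

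Regulators of IGF2 RNA and of its locus had a median of -0.22 over 5 genes tested, with 3 negative, or -0.28 with 4 negative when G34W replicate 1 was left out. HMGA2, an activator of IGF2BP2 transcription, was at -0.42 (SE 0.42), IGF2BP1 at -0.26 (SE 0.31) and IGF2BP2 at -0.22 (SE 0.26). Without G34W replicate 1, HMGA2 was at -0.28 and IGF2BP1 at -0.32. IGF2BP1 and IGF2BP2 encode proteins that bind IGF2 mRNA. IGF2BP2 had groups that did not overlap, yet its difference was -0.03 without G34W replicate 1.

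Receptor signalling was the longest list, and its 22 genes had a median of -0.10, with 8 positive and 14 negative. Leaving out G34W replicate 1 turned these to 0.05, 13 and 9. FOXO1, a transcription factor that insulin and IGF signalling keeps out of the nucleus, was 984 and 247 in G34W, 196 and 127 in WT, and 152 in EV replicate 2. Both G34W libraries were above the other 3, but replicate 1 set the size of the difference. It was 1.64 (SE 0.61, limma adjusted p = 1) on the log2 scale and 0.64 without replicate 1; the part of the stem cell markers in it was not tested. PIK3CB, a catalytic subunit of PI3-kinase, was at 0.86 (SE 0.44), or 0.50 without that library, and SOS1, which activates RAS, was at 0.74 (SE 0.44), or 0.99. SHC1, GRB10, MTOR and RPS6KB1, named after their values were seen, were below WT in both G34W libraries.

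In the growth hormone axis, 5 genes were tested and the median was 0.12, or 0.11 without G34W replicate 1. SOCS2, a feedback inhibitor of growth hormone signalling, was 689 and 623 in G34W, 463 and 312 in WT, and 373 in EV replicate 2. Both G34W libraries were above the other 3. The log2 difference was 0.78 (SE 0.34, limma adjusted p = 1), and 0.71 without G34W replicate 1. JAK2, the kinase of the growth hormone receptor, was at -0.38 (SE 0.30) and STAT5A, a transcription factor downstream of it, at 0.12 (SE 0.32). Without that library they were at -0.40 and 0.42. Both G34W libraries (531 and 523) were below the other 3 for JAK2, and the groups overlapped for STAT5A.

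**Figure D4:**
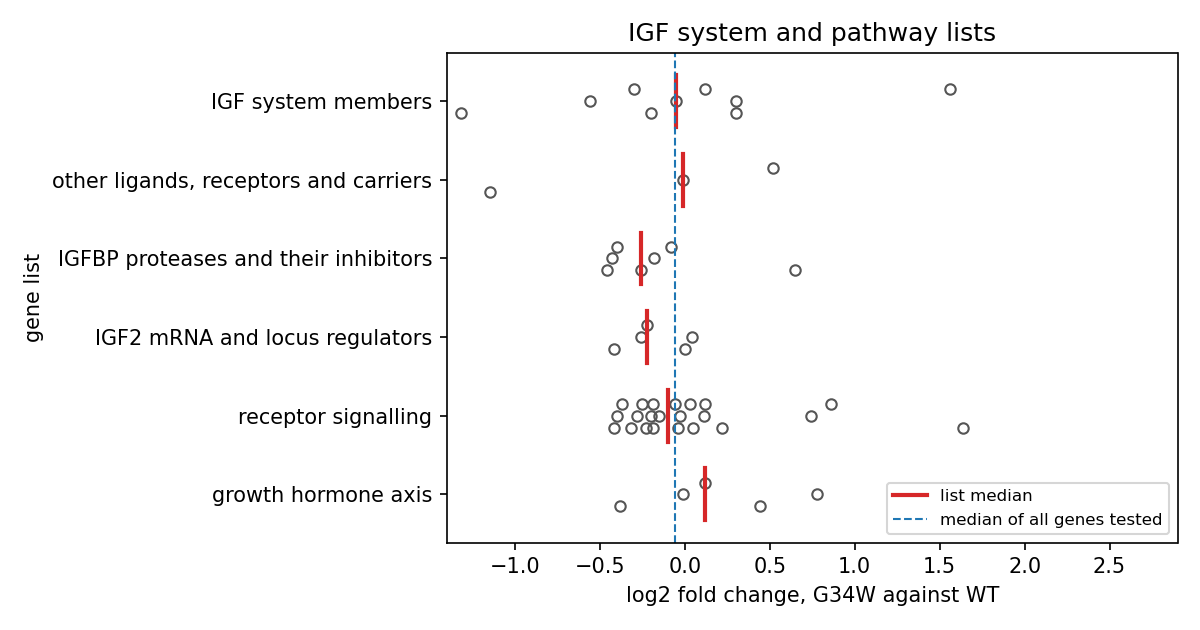
Log2 fold change of G34W against WT for each gene tested (circles) in the IGF system and 5 pathway lists, with list medians (red) and the median of all genes tested (dashed, -0.06). List medians lie between -0.26 and 0.12, and circles are spread vertically only to separate them.

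Genes with the profile most like a member were found among 13402 genes with a mean of at least 50 by the root mean square difference of log2 values, each centred on its own mean over the 5 libraries. The closest to IGF2 was S1PR1, a sphingosine 1-phosphate receptor, at 0.059, followed by UCN2 at 0.183 and GPR1 at 0.189. S1PR1 was 428 and 560 in G34W, 931 and 1352 in WT, and 1207 in EV replicate 2. It was chosen for its closeness to IGF2, so its lower values in both G34W libraries were fixed by the selection. IGFBP2 was matched most closely by B3GALT1 (0.15), NUDT10 (0.219) and ERVMER34-1 (0.220). These genes were between 13.95 and 25.4 outside G34W replicate 1, so only that library took them to the mean of 50. Their high value in it was thus fixed by the selection. For IGFBP5 the closest were PAX3 (0.062), PSMB9 (0.082) and CAVIN4 (0.085). Closeness over 5 libraries describes these values only.

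**Figure D5:**
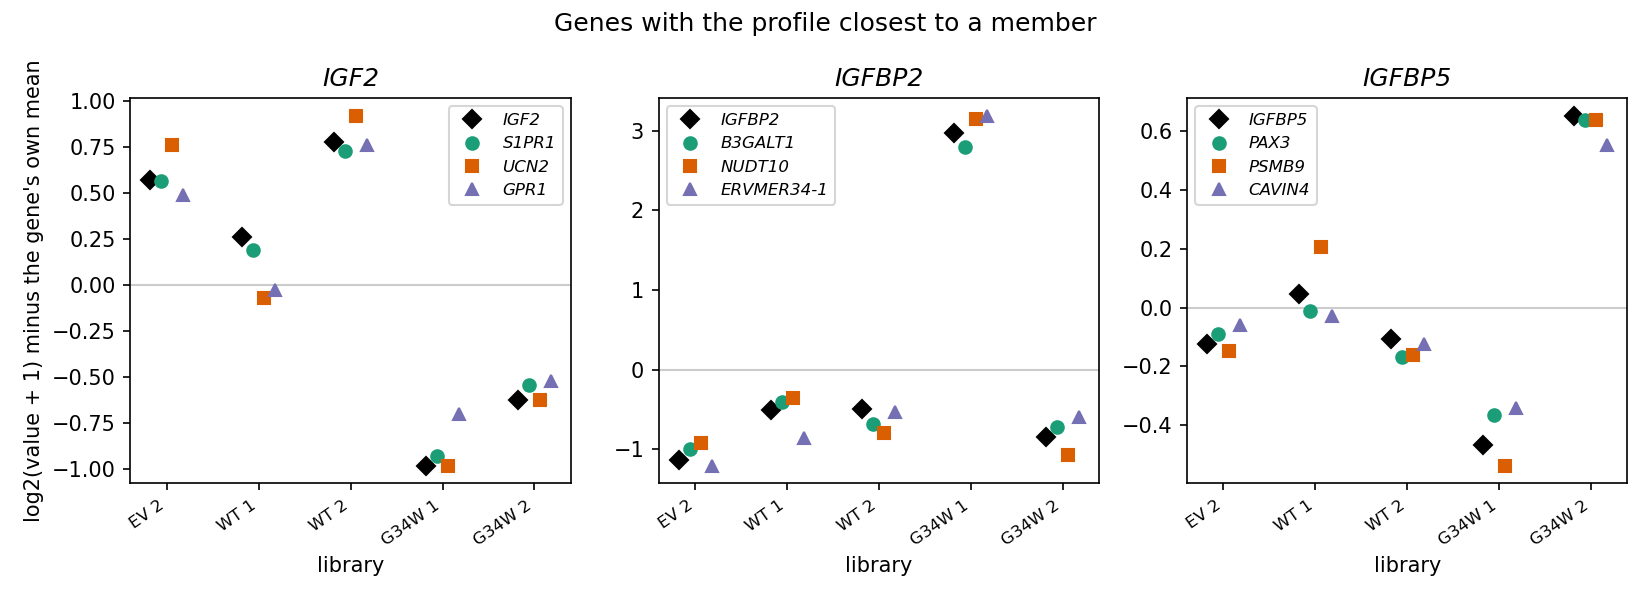
Log2(value + 1) minus the gene's own mean over the 5 libraries, for IGF2, IGFBP2 and IGFBP5 (black diamonds) and the 3 genes closest to each. S1PR1 was chosen for its closeness to IGF2, with a root mean square difference of 0.059, so their shared pattern was fixed by the selection. The genes near IGFBP2 reached the mean of 50 only through G34W replicate 1, so their high value there was fixed by the selection.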

How the data were processed

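Poly(A) RNA of hFOB 1.19 was sequenced. The labels name a directional library kit, while the methods also describe a TruSeq preparation, and whether quantification used strand is not given in the sources used here; reads of antisense partners of a member therefore cannot be told apart from its own. The authors obtained transcript-level count estimates from kallisto (Ensembl annotation, GRCh38), which tximport summarised to genes and DESeq2 normalised; tool versions are not given in the sources used here. The deposited signal is this normalised estimated count. Whole reads were not recovered, so no count test was run.

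Values of 5 libraries were taken as log2(value + 1), which understates changes of low genes, and genes with a mean of at least 10 over these libraries were tested with limma 3.58.1 in R 4.3.3 (3 group means, trended prior variance, two-sided, Benjamini-Hochberg over 16259 genes, threshold 0.05). Intervals are at 95% before adjustment. The fit was tested on simulated data. The alternatives were an untrended or robust prior, a pseudocount of 0.1, no filter, rescaled libraries, fits without EV or with all 6 libraries, a replicate block, and leaving out each WT or G34W library.

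The members, the lists, the trended fit and the low-value filter were chosen with earlier results of these data known. All members were named. Of each list, up to 3 genes with a mean of at least 50 and the largest difference of G34W from WT were named, besides all markers. Profile likeness was computed for members with a range of at least 1 on the log2 scale and a mean of at least 10, against genes with a mean of at least 50. Transcript lengths are exon lengths of GENCODE canonical transcripts, and coordinates are those of RefSeq genes matched by symbol. The antisense genes IGF2-AS, IGFBP7-AS1, IRAIN and AIRN, and H19, are not analysed here. Figures were drawn with matplotlib 3.10.9.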

Additional observations from a re-analysis of the deposited data

Results flagged for a closer look

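EV replicate 1, which no comparison used, held 3 members at higher values than EV replicate 2. IGF1 was 80.8, or 24.9 times its value in EV replicate 2. IGF2 was 13370 (24.6 times) and IGFBP6 was 126000 (23.8 times). IGF2 lies on chromosome 11, and IGF1 and IGFBP6 lie on chromosome 12. Where EV replicate 2 had 50 or more, the median ratio between these libraries was 23.6 for 498 genes of chromosome 10, 23.8 for 715 genes of chromosome 11 and 20.9 for 660 genes of chromosome 12. For 10725 genes outside chromosomes 10, 11 and 12 it was 0. The chromosome 12 genes were not uniform, with 18.3% of them listed at 0 in EV replicate 1 and a first quartile of 0.068. IGF1, at 3.25 in EV replicate 2, was too low to be among them. The cause of the pattern was not tested.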

How the results depend on the processing

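No alternative called a member in any comparison. IGF2 and IGF1R were lower in G34W than in WT under all 12 alternatives, most of which could not turn the direction. A change of the prior leaves a difference of group means as it was. As both G34W libraries were below both WT libraries for these genes, leaving out 1 of them could not turn it either. The log2 difference turned for IGF2R (from -0.47 to 0.07 when single libraries were left out), IGFBP2 (-0.34 to 3.47), IGFBP4 (-0.20 to 0.11, and 0.02 after rescaling), IGFBP5 (-0.44 to 0.68), IGFBP6 (-0.75 to 0.14) and, by less than the rounding, IGFBP7 (0.00, without WT replicate 2, to 0.60). That of IGFBP3 kept its direction and ran from 0.00, without G34W replicate 2, to 0.61. In G34W against WT the robust prior called 1 gene, AP002748.5, and leaving out single libraries called 0 to 6 genes, with 6 without WT replicate 1 and 1 without WT replicate 2. Against EV, the robust prior and the pseudocount of 0.1 each called 1 gene, PPP1R11, in both comparisons. Leaving out single libraries called 0 to 1 gene in G34W (RPL3P4, without G34W replicate 1) and 0 to 4 in WT, with RPL3P4 without G34W replicate 1, and MMP11, VASN, DDAH2 and AP002748.5 without WT replicate 1. These genes were named after their values were seen, and the cause was not tested. A group left with 1 library was assumed to vary like the others. Replicate numbers are shared in name only (correlation of deviations 0.095), and the replicate block called 0 genes. Depth is unknown.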

Other observations

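INSR, the receptor for insulin and, in 1 isoform, for IGF2, was lower in EV replicate 2 than in every other library compared. It was 146 there, against 447 and 323 in WT and 317 and 450 in G34W. The log2 difference from EV was 1.37 (SE 0.47) in WT and 1.36 (SE 0.47) in G34W, both with a limma adjusted p of 1. Both rest on the same single EV library, and the gene is named here after its values were seen.

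ALPL, an enzyme of early osteoblasts, was 1216 in G34W replicate 1 and 107 in G34W replicate 2, with 246 and 236 in WT and 428 in EV replicate 2. Its high value was thus in the library with the stem cell markers.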
